A study of Homo sapiens with 5 samples.

Results

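The small heat shock proteins and SERPINH1 were followed across the HSF1 and MYC CUT&RUN peak lists of OVCAR8 cells. The group holds 8 genes of the 20033 protein-coding genes annotated in GENCODE 44 on chromosomes 1 to 22, X and Y. HSPB1, HSPB2, HSPB6, HSPB7, HSPB8, CRYAA and CRYAB encode small heat shock proteins, and SERPINH1 encodes the collagen chaperone HSP47. A peak was assigned to a gene when it overlapped the stretch from 5 kb upstream of the gene to its end on GRCh38. The genes were chosen by name and function, not by their peaks, although results of these data were already known when the group was drawn up.

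OVCAR8 is an established human ovarian carcinoma line, grown here without treatment and in proliferation, so no heat shock was applied to any library. CUT&RUN places a nuclease on DNA through an antibody against the protein of interest, and the released fragments are sequenced. Formaldehyde at 1% was applied for 1 minute before 500000 cells went into each reaction. The samples were 2 HSF1 libraries, 2 MYC libraries and 1 IgG control. They came from the same line and differ in the antibody. The labels do not say whether the replicates were separate cultures, so the spread between them may be technical. The antibody libraries kept 8265647 to 10084407 fragments and the IgG library 9306942. The lists hold 6477 and 4492 HSF1 peaks in replicates 1 and 2, called at p 1e-04, and 25646 and 13290 MYC peaks, called at p 1e-10. Because the thresholds and antibodies differ, heights were not compared between the factors. The height of a peak is given as its fold enrichment. This is the linear ratio of the fragment pileup at the summit to the IgG background, after 1 was added to each. The place of a peak in its own list is given as a percentile of fold enrichment. A peak is called reproducible when peaks of both replicates of a factor overlap by at least 1 bp, which left 2141 HSF1 and 11756 MYC intervals. With 2 lists for each factor an exact permutation test cannot go below a two-sided p of 0.333, so no test was made and values are set against the spread between the replicate lists.

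Small heat shock proteins hold unfolding proteins in large oligomers and keep them from aggregating without using ATP, and the HSP70 machinery then takes the clients over. HSPB1 (HSP27) is the broadly expressed member, CRYAA and CRYAB are the lens crystallins, and HSPB2, HSPB6, HSPB7 and HSPB8 are best known from muscle. SERPINH1 works in the endoplasmic reticulum, where it binds folded procollagen. HSF1 binds as a trimer to heat shock elements, which are inverted repeats of a GAA unit, and MYC binds with MAX to E-boxes.

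The sequences on which the results turn are shown first. They were read from GRCh38, plus strand, and capitals mark a motif. A heat shock element was searched as GAA-NN-TTC-NN-GAA or TTC-NN-GAA-NN-TTC, where N is any base, which are reverse complements, so that both strands were covered. The E-box CACGTG is its own reverse complement. The first 3 lines show the complete elements inside HSF1 peaks, at HSPB1 (chr7:76303614-76303643), SERPINH1 (chr11:75562169-75562198) and CRYAB (chr11:111911803-111911832). In HSPB1 a pair of elements overlaps.
HSPB1 intron 1: atcgaaGAACTTTCCGGAAGTTTCtgagag
SERPINH1 promoter: ttccaactTTCCAGAAGTTTCtcgggacgg
CRYAB promoter: agtcttgtGAAGCTTCTGGAAtggtgatgt

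The promoter of HSPB1 had strong HSF1 peaks but no complete element. Its 250 bases before the canonical start site (chr7:76302423-76302672) are shown with the best match, which has 1 mismatch, in capitals. The promoter of HSPB6 (chr19:35757203-35757328) is set beside it, because it holds a like match and a MYC peak but no HSF1 peak. In HSPB6 the second run of capitals is a 2-unit element, TTC-NN-GAA or GAA-NN-TTC.
HSPB1 promoter: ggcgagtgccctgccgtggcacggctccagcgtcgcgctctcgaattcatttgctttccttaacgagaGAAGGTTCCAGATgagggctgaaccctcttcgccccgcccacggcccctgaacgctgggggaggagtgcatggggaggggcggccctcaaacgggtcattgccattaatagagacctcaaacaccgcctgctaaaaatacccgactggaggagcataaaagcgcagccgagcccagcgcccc
HSPB6 promoter: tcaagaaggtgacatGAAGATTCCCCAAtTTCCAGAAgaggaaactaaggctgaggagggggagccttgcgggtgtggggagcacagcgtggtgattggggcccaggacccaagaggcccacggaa

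E-boxes were searched as well. The 3 that lie inside reproducible peaks are in exon 2 of HSPB6 (chr19:35755790-35755819), in HSPB1 (chr7:76303851-76303880) and in intron 1 of SERPINH1 (chr11:75564366-75564395).
HSPB6 exon 2: cgcgtgcacctcCACGTGttcgcccaccac
HSPB1 E-box: cacgcggaaataCACGTGagtcctggcgcc
SERPINH1 intron 1: gatggtacctgcCACGTGgcatggctggga

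HSF1 was found at 4 of the 8 genes, and the calls were the same in either list. HSPB1, HSPB2, CRYAB and SERPINH1 had reproducible HSF1 peaks, against a background of 6.41% of all protein-coding genes. The same 4 genes had a peak in HSF1 replicate 1, where 16.5% of all genes did, and in replicate 2, where 12.3% did (7.81% of all genes had one in both lists, at the same place or not). They also had a reproducible peak within 1 kb of the canonical start site, where 2.46% of all genes had one. These 4 genes are not 4 separate events, since HSPB2 and CRYAB lie head to head and share 1 promoter peak. The regions of the 8 genes were shorter than usual, with a median of 9682.5 bp against 32471 bp over all protein-coding genes, so the background share counts regions that offer more room for a peak.

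MYC gave another picture at the same genes. HSPB1, HSPB6 and CRYAB had reproducible MYC peaks, 3 of 8 genes, and the background was 44.6%. In MYC replicate 1 there were 5 of 8 genes with a peak (HSPB1, HSPB2, HSPB6, CRYAB and SERPINH1) against 63.3%, and in replicate 2 there were 4 (HSPB1, HSPB6, CRYAB and SERPINH1) against 46.2%. The MYC counts were thus near or below the share of all genes. Overlapping reproducible peaks of both factors were present at HSPB1 and CRYAB, 2 of 8 genes, with a background of 3.65%. HSPB2 and SERPINH1 had a reproducible HSF1 peak and no reproducible MYC peak, a combination found in 1.21% of all genes. HSPB6 had reproducible MYC peaks and no reproducible HSF1 peak, as 39.4% of all genes did, and no HSF1 peak in either single list. HSPB7, HSPB8 and CRYAA had no peak in any list.

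**Figure D1:**
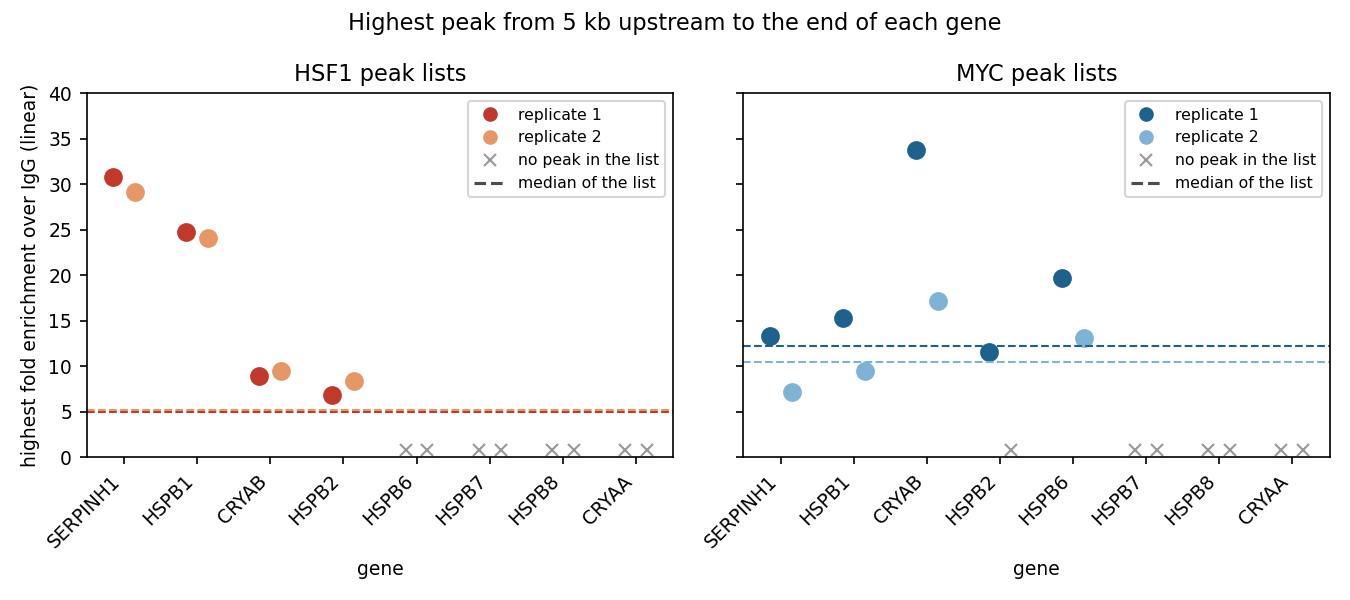
Highest fold enrichment over IgG (linear axis) in the region of each gene, in the HSF1 lists (left) and the MYC lists (right). Each point is 1 replicate list, crosses mark no peak in that list and dashed lines are the list medians. The HSF1 points of SERPINH1 (30.9 and 29.2) and HSPB1 (24.8 and 24.1) sit well above the medians of 5.00 and 5.20, while the MYC points of the same genes lie on either side of the medians of 12.2 and 10.5. The CRYAB points are those of a site 15 kb from its canonical start, not of its promoter.

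SERPINH1 carried the highest HSF1 peak of the group. The gene lies at chr11:75562056-75572783 on the plus strand, with its canonical start at 75562253. Over its start, HSF1 replicate 1 had a fold enrichment of 30.9 and replicate 2 of 29.2 (mean 30.03 ± 1.17, SD, n = 2 lists), with pileups of 59 and 53 fragments. Both values were in the top of their lists, at the 99.5 and 98.7 percentiles, and the mean ranked 39 of the 2141 reproducible HSF1 peaks. The summits lay 93 and 136 bp upstream of the start, 43 bp apart, and the printed element was 23 and 66 bp from them. Counting the highest peak of each gene, SERPINH1 was 25th of 3315 genes with a peak in replicate 1 and 58th of 2467 in replicate 2.

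Weaker HSF1 peaks flanked the SERPINH1 promoter. A reproducible one in intron 1 had fold enrichments of 4.63 and 5.92, with summits 1813 and 2089 bp downstream of the start, and ranked 1514 of 2141. Replicate 1 also had a separate peak of 4.58 at 765 bp downstream, which in replicate 2 fell inside the 1925 bp promoter peak. Replicate 2 alone had peaks of 5.56 and 5.28 at 3997 and 2938 bp upstream. The second of these held a heat shock element with 1 mismatch 52 bp from its summit. The flanking peaks lay between the 38.4 and 65.1 percentiles of their lists, and the promoter peak stood far above them.

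MYC was called at SERPINH1 in both lists, but never at the same place. Replicate 1 had a promoter peak of 13.3 with its summit 100 bp upstream of the start, and peaks of 7.98 and 9.86 in intron 1, at 2086 and 3328 bp. Replicate 2 had peaks of 7.15 and 6.63 in intron 1, at 365 and 704 bp, and none over the start. These MYC peaks were modest in their own lists, at the 58.9, 11.5 and 30.1 percentiles in replicate 1 and the 10.6 and 6.77 percentiles in replicate 2. When a peak in both lists at any position was accepted, SERPINH1 counted as MYC-bound (4 of 8 genes, background 45.4%). The promoter summit of MYC replicate 1 was 7 bp from the HSF1 summit of replicate 1 and 36 bp from that of replicate 2, closer than the HSF1 summits were to each other.

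HSPB1 had the next highest HSF1 signal, spread over its promoter and first intron. The gene lies at chr7:76302673-76304295 on the plus strand. HSF1 replicate 1 had a promoter peak of 24.8 and replicate 2 a peak of 24.1 (mean 24.5 ± 0.491, SD, n = 2 lists), with pileups of 41 and 36 fragments. These were at the 99.1 and 97.8 percentiles, and the mean ranked 70 of 2141. The summits lay 134 and 239 bp upstream of the start, and the 1-mismatch element in the printed promoter was 42 and 63 bp from them. In both lists the HSPB1 value was below that of SERPINH1, and the ranges of the lists did not overlap.

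Replicate 1 resolved a second HSF1 peak in HSPB1 intron 1, of nearly the same height as the promoter peak. Its fold enrichment was 22.1, at the 98.8 percentile, and its summit 974 bp downstream of the start lay 16 bp from the nearer of the overlapping complete elements. Replicate 2 had no separate peak there, since its 2131 bp promoter peak ran across the promoter and the intron. The deposited lists give 1 summit for each peak, so the height of replicate 2 in the intron cannot be read. Replicate 2 also had a small peak of 4.57 with its summit 1662 bp downstream, beyond the end of the gene, which replicate 1 did not have.

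MYC peaks at HSPB1 followed both positions in replicate 1. Its promoter peak had a fold enrichment of 15.2 with a summit 180 bp upstream of the start, and its intron peak 15.3 with a summit 957 bp downstream. Replicate 2 had only the downstream peak, of 9.52, with its summit in the coding part of exon 3, 1316 bp from the start. The reproducible MYC interval had a mean of 12.4 ± 4.09 (SD, n = 2 lists) and ranked 6850 of 11756, so it was ordinary for MYC where the HSF1 peak was among the highest. Between the highest summits of the reproducible intervals, HSF1 in the promoter and MYC downstream, the mean gap was 1323 bp (1091 in replicate 1 and 1555 in replicate 2), larger than the 105 bp between the HSF1 replicates and the 359 bp between the MYC replicates. Peak by peak, the MYC replicate 1 summits were 46 and 17 bp from the HSF1 summits of replicate 1 in the promoter and the intron. They were 4 bp from the 1-mismatch element in the promoter and 1 bp from a complete element in the intron, while the single E-box in the interval was 235.5 bp from the intron summit of replicate 1 and 123.5 bp from the summit of replicate 2.

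**Figure D2:**
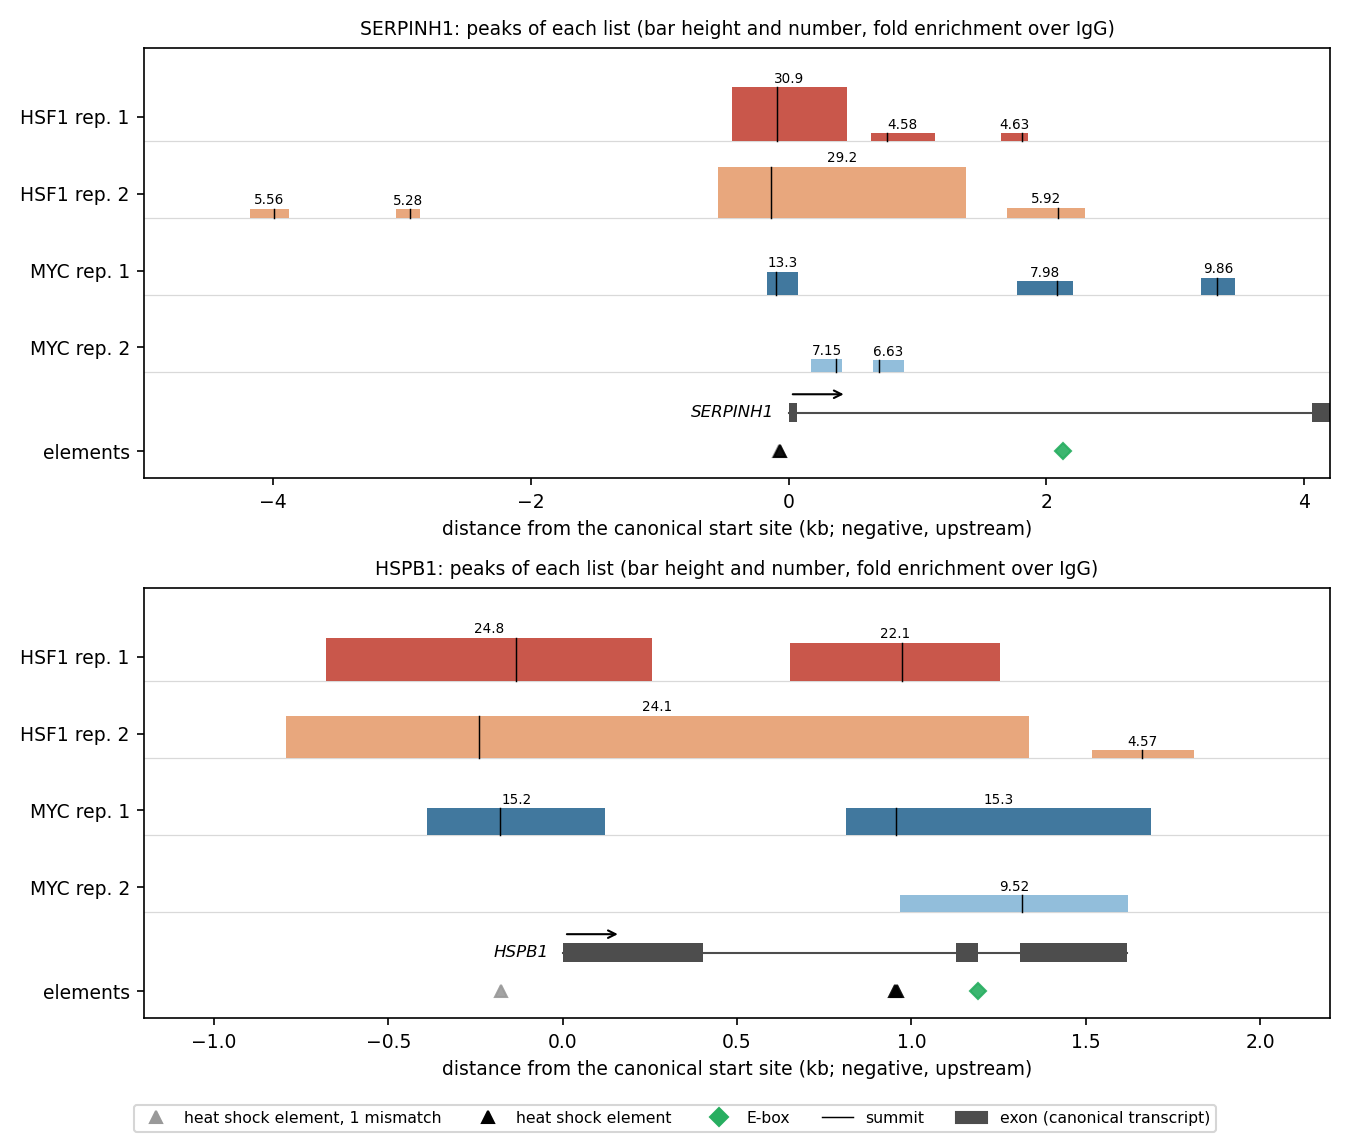
Peaks of the 4 lists at SERPINH1 (top) and HSPB1 (bottom) by distance from the canonical start site in kb. Bar height and the number above it are the fold enrichment over IgG, black lines are summits, and symbols at the bottom mark motifs in reproducible peaks or near the start site. HSF1 peaks of 30.9 and 29.2 cover the SERPINH1 start in both lists, and the MYC peaks of the 2 lists do not overlap there. At HSPB1 peaks of all 4 lists reach into the intron, but the summits inside it are those of replicate 1.

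CRYAB and HSPB2 share a promoter, and HSF1 was found between their start sites. CRYAB is transcribed from the minus strand (chr11:111908564-111923722, canonical start at 111911770) and HSPB2 from the plus strand (chr11:111912734-111914093), with 964 bp between the starts. The HSF1 fold enrichment was 6.87 in replicate 1 and 8.35 in replicate 2 (mean 7.61 ± 1.04, SD, n = 2 lists), at the 81.7 and 82.7 percentiles, and the mean ranked 765 of 2141. The summits were 321 and 187 bp upstream of CRYAB and 643 and 777 bp upstream of HSPB2, so both lay nearer to CRYAB. Non-canonical CRYAB transcripts start closer still, 108 and 81 bp from the summit of replicate 1 and 26 and 53 bp from that of replicate 2. The peak was above the list medians and below the HSPB1 and SERPINH1 values in either list.

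The complete heat shock element of this promoter lay 47 bp upstream of CRYAB and 917 bp upstream of HSPB2. It was 140 bp from the summit of HSF1 replicate 2 and inside that peak, whereas the narrower peak of replicate 1 (291 bp) did not reach it. MYC was called between the start sites only in replicate 1, with a fold enrichment of 11.5 at the 44.6 percentile. The MYC summit was 16 bp from the HSF1 summit of replicate 2 and 150 bp from that of replicate 1, and the HSF1 summits themselves were 134 bp apart. HSPB2 therefore had no MYC peak in replicate 2, and its only MYC signal is this single-list peak.

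The reproducible overlap of HSF1 and MYC counted for CRYAB came from a site far from its promoter. It lay 15 kb upstream of the canonical start (HSF1 chr11:111926733-111927220, MYC chr11:111926637-111927419) and entered the region only because the longest annotated CRYAB transcript starts 11952 bp upstream of the canonical one. HSF1 reached 8.94 and 9.49 there (mean 9.21 ± 0.389, SD, n = 2 lists, rank 505 of 2141), with summits 4 bp apart. MYC reached 33.8 and 17.1 (mean 25.5 ± 11.8, rank 616 of 11756), the highest MYC values of the group in both lists, at the 98.3 and 87.8 percentiles. A non-canonical start of another gene, DIXDC1, lay 90 and 94 bp from the HSF1 summits and 153 and 339 bp from the MYC summits. The mean summits of HSF1 and MYC were 154 bp apart (63 in replicate 1 and 245 in replicate 2), and the summits of the MYC replicates were 186 bp apart. The gap between the factors was thus below the gap between the MYC replicates in replicate 1 and above it in replicate 2. Within 1 kb of the CRYAB canonical start there was no reproducible MYC peak, so by that rule CRYAB and HSPB2 alike had HSF1 without MYC. Neither a complete heat shock element nor an E-box was found in the far interval. It held a 2-unit element 189.5 and 3.5 bp from the MYC summits of replicates 1 and 2, and 252.5 and 248.5 bp from the HSF1 summits. Such an element was present in 62.5% of all reproducible HSF1 intervals and 27.4% of all reproducible MYC intervals.

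HSPB6 was the member with MYC peaks alone. Its canonical start is at 35757029 on the minus strand of chromosome 19 (gene chr19:35754566-35758079). The highest MYC peak lay in exon 2, with fold enrichments of 19.7 and 13.1 (mean 16.4 ± 4.66, SD, n = 2 lists, rank 3359 of 11756) and summits 29 bp apart. It held the printed E-box, 59.5 and 88.5 bp from the summits. The promoter peak had fold enrichments of 10.3 and 10.7, with summits 289 and 282 bp upstream of the start, and was near or below the median of its list at the 35.02 and 52.1 percentiles. The third peak, of 9.01 and 7.01, was 136 and 146 bp upstream of the canonical start of PROSER3, a neighbour transcribed the other way. Its summits (35758040 and 35758030) also lay inside the annotated HSPB6 gene, close to its upstream edge at 35758079. The peak therefore cannot be assigned to either gene alone. All 3 intervals were present in both MYC lists.

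No HSF1 peak was called at HSPB6 although its promoter sequence resembled that of HSPB1 in the motif count. The nearest HSF1 summits were 16410 bp away in replicate 1 and 39193 bp away in replicate 2. The HSPB6 promoter held a 1-mismatch element centred 195 bp upstream of the start and a further 2-unit element, and HSPB1 held a 1-mismatch element centred 176 bp upstream. A heat shock element with up to 1 mismatch was present in 10.8% of all promoters from 500 bp upstream to 100 bp downstream of the canonical start, so the match itself was common. A missing call here means that HSF1 did not pass the threshold at this depth.

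**Figure D3:**
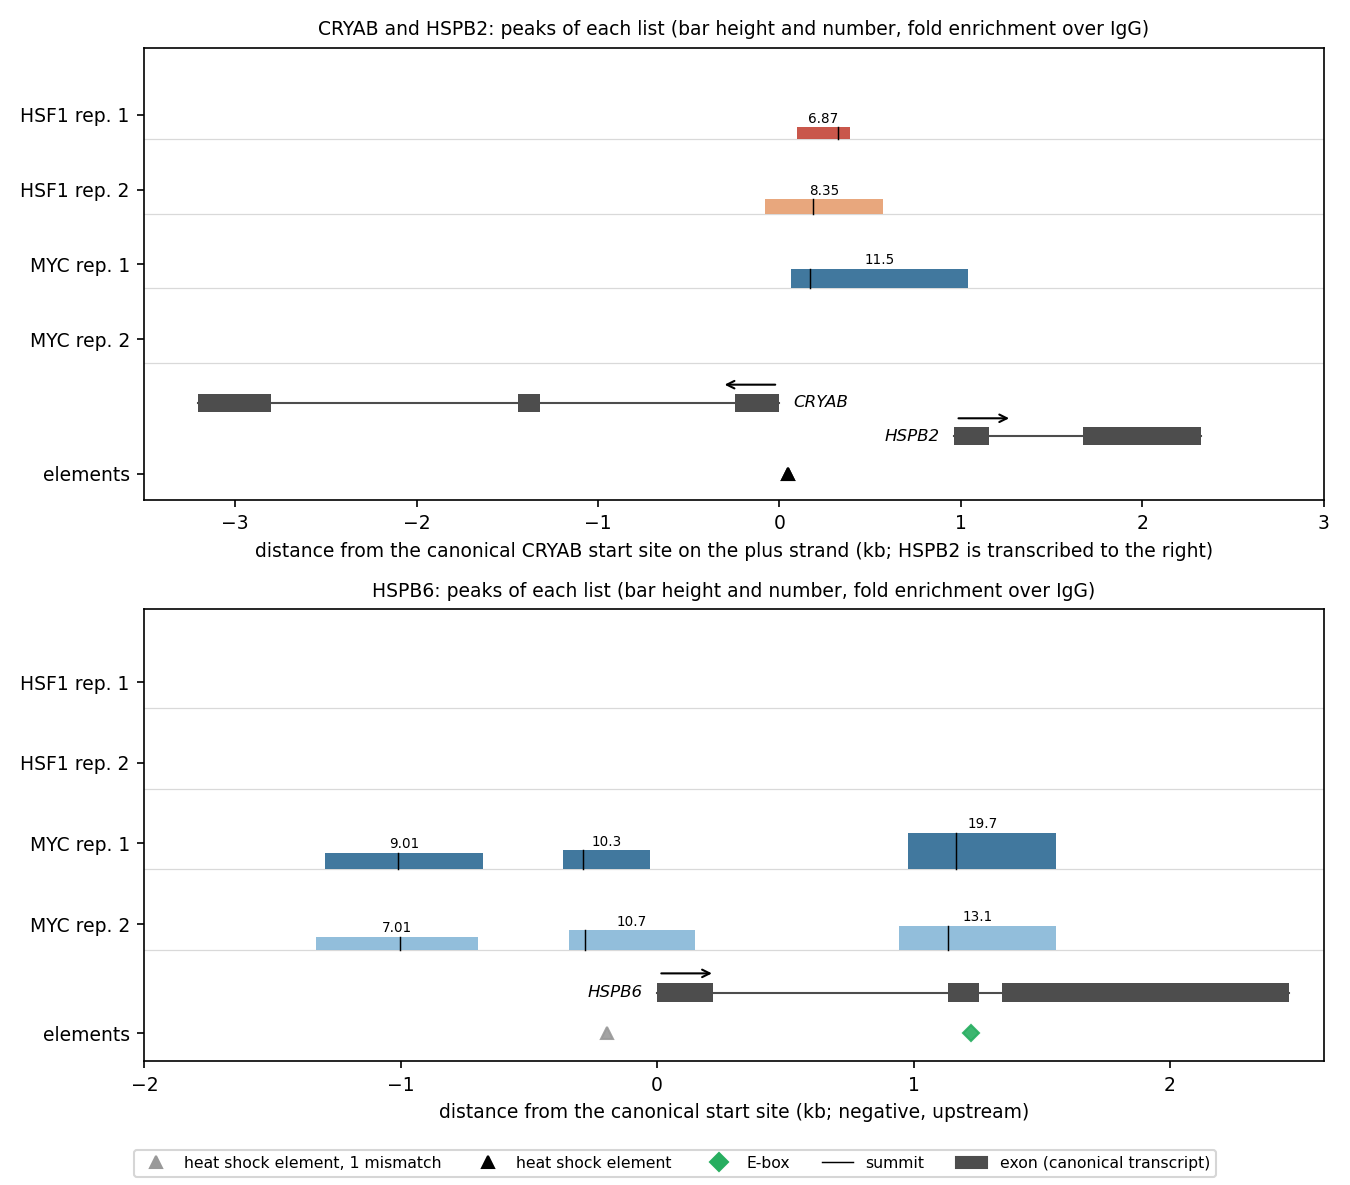
Peaks of the 4 lists at the CRYAB and HSPB2 start sites (top) and at HSPB6 (bottom) by distance in kb from the canonical start of CRYAB or HSPB6. Bar height and the number above it are the fold enrichment over IgG, black lines are summits and symbols mark motifs. HSF1 (6.87 and 8.35) lies between the CRYAB and HSPB2 starts with MYC in replicate 1 only, whereas HSPB6 has 3 MYC peaks in both lists and no HSF1 peak.

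HSPB7, HSPB8 and CRYAA had no peak of either factor. For HSPB7, best known from heart and skeletal muscle, the nearest summits were 65200 and 65330 bp from the canonical start for HSF1 and 42206 and 42097 bp for MYC. For HSPB8, a partner of BAG3, they were 1052617 and 1051469 bp for HSF1 and 488904 and 698297 bp for MYC. Its region was the longest of the group, 58301 bp, and still held none. For CRYAA, the lens crystallin, they were 94342 and 94242 bp for HSF1 and 21323 and 61584 bp for MYC. The start site of CRYAA has a near-identical copy on the same chromosome of GRCh38 (chr21:6559691-6560787, 99.7% identity over 1097 bp), and no list had a peak over the copy either. How reads with several alignments were handled is not given in the sources used here, and the part of the copy in the missing CRYAA calls was not tested. The promoters of HSPB7 and CRYAA held no heat shock element, 2-unit element or E-box, and that of HSPB8 held 2-unit elements alone. The promoter of HSPB2, which did have an HSF1 peak further upstream, held none of them either.

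Complete heat shock elements marked the promoters of 2 of the 8 genes, CRYAB and SERPINH1, from 500 bp upstream to 100 bp downstream of the start, against 0.804% of all protein-coding promoters. No member promoter held an E-box, which was present in 13.5% of all promoters. Of the 5 distinct reproducible HSF1 intervals, 1 (SERPINH1) had a complete element within 100 bp of its strongest summit and 3 (HSPB1, CRYAB with HSPB2, and SERPINH1) had one anywhere in the interval. Over all reproducible HSF1 peaks these shares were 10.1% and 25.2%. The intervals of HSPB1 (2131 bp) and SERPINH1 (1925 bp) were long, against median peak lengths of 273 and 290 bp in the HSF1 lists. They thus offered more sequence to the search of whole intervals. Of the 5 distinct reproducible MYC intervals, 1 (HSPB6 exon 2) had an E-box within 100 bp of its strongest summit, and 8.31% of all MYC peaks did. Anywhere in the interval 2 of 5 (HSPB1 and HSPB6 exon 2) had an E-box, against 30.4% of all reproducible MYC peaks.

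Some MYC peaks of replicate 1 at SERPINH1 and HSPB1 lay on complete heat shock elements, and others at these genes did not. In that list 2 of 10 member peaks, the SERPINH1 promoter and the HSPB1 intron, had a complete element within 100 bp of the summit, where 70 of 25623 peaks (0.273%) did. In MYC replicate 2 this held for 0 of 7 member peaks and 0.271% of the list. Both peaks overlapped an HSF1 peak of each list. The pattern thus rests on 1 of the 2 MYC lists.

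Agreement between replicates was highest for HSF1 replicate 1. All 7 of its peaks at the members were present in replicate 2, where 34.0% of its whole list was. They fell on 5 peaks of replicate 2, since its 2131 bp peak at HSPB1 and 1925 bp peak at SERPINH1 each covered more than 1. Of the 8 HSF1 peaks of replicate 2, 5 were in replicate 1, where 48.3% of the whole list was, and the 3 that were not had fold enrichments of 5.56 or less. MYC replicate 1 shared 5 of 10 member peaks with replicate 2, close to 46.9% of the list, and replicate 2 shared 5 of 7, where 92.6% of its list was shared. The MYC peaks found in 1 list alone reached 15.2 in replicate 1 and 7.15 in replicate 2.

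**Figure D4:**
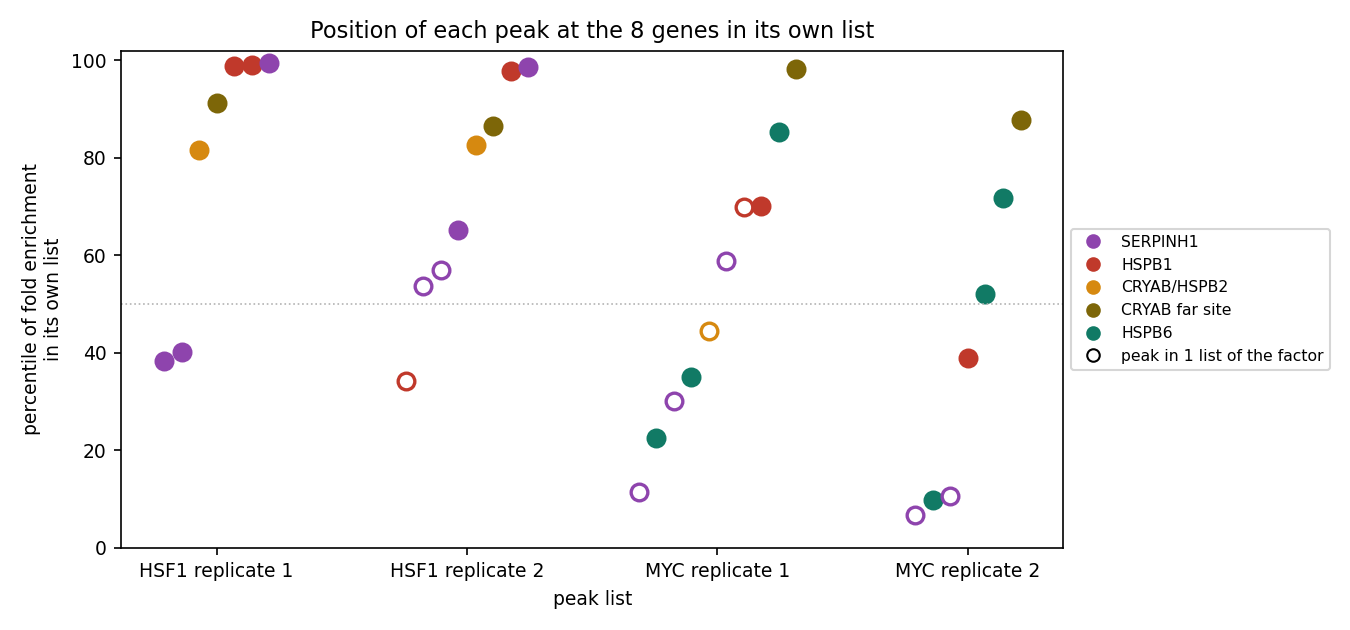
Percentile of fold enrichment of every peak at the 8 genes within its own list, by list. Filled points were in both lists of the factor and open points in 1. SERPINH1 and HSPB1 promoter peaks lie at or above the 97.8 percentile in both HSF1 lists, whereas MYC peaks are spread from the 6.77 to the 98.3 percentile, with the CRYAB far site highest.

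The order of the members by HSF1 was SERPINH1, HSPB1, the CRYAB far site and the CRYAB and HSPB2 promoter, in each of the lists. The last neighbours did not keep this order on another scale. As pileup per 1000000 fragments kept, the far site had a mean of 1.93 and the shared promoter 2.17. For MYC, the CRYAB far site was followed by HSPB6 exon 2 and HSPB1 in both lists. Across lists the fold enrichments of neighbours overlapped, with replicate 2 below replicate 1 of the next (17.1 against 19.7, and 13.1 against 15.3). The MYC lists themselves differ in median fold enrichment (12.2 and 10.5). As percentiles in replicates 1 and 2, the far site was at 98.3 and 87.8, HSPB6 exon 2 at 85.3 and 71.9, and HSPB1 at 70.2 and 39.0. These percentile ranges did not overlap.

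Across 1293 genes with a peak in all 4 lists, the genes whose 4 highest fold enrichments were most like those of SERPINH1 were PGAM5 and HSPB1, at distances of 0.35 and 0.62 on the log2 scale. For HSPB1 they were CLEC16A and FBXL7, at 0.27 and 0.54. CRYAB was matched at a distance of 0 by HSPB2-C11orf52 and C11orf52, whose regions contain the same peaks. Likeness here covers 4 heights only.

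The genes of proteins that work with the members were counted in the same way. The list held 27 genes of other small heat shock proteins, the HSP70 machinery, the collagen-modifying enzymes and collagens. HSF1 was reproducible at 11 of 27 (background 6.41%), MYC at 22 of 27 (44.6%) and overlapping peaks of both at 9 of 27 (3.65%). Within 1 kb of the canonical start, HSF1 was reproducible at 8 of 27 (background 2.46%) and MYC at 19 of 27 (36.2%). All 8 partners with HSF1 there were HSP70-system genes (BAG3, DNAJB1, DNAJB6, HSPA1A, HSPA1B, HSPA4, HSPA8 and HSPH1). Over the whole region, SERPINH1 had reproducible HSF1 without reproducible MYC, and 0 of the 27 partners did (background 1.21%). Within 1 kb of the start BAG3 had HSF1 without MYC too, and SERPINH1 itself counted as MYC-bound when peaks at any position were accepted. Of the 10 collagen-modifying enzymes and cofactors it works beside, 8 (FKBP10, P3H1, CRTAP, PPIB, P4HA1, P4HA2, P4HB and PLOD3) had reproducible MYC and no reproducible HSF1 peak, against 39.4% of all genes. Of these 8, P4HA2 was the one without a reproducible MYC peak within 1 kb of its canonical start. PLOD2 had reproducible peaks of both factors, which did not overlap. PLOD1 had no reproducible peak of either, but had a peak in HSF1 replicate 2 and in MYC replicate 1. P4HA1 and P4HA2 also had an HSF1 peak in replicate 2 alone.

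Values of the highest partners put the members in scale. HSPA8, the constitutive HSP70, had HSF1 fold enrichments of 42.7 and 45.5 over its start, and DNAJB6, a J-domain co-chaperone, 37.1 and 59.7. HSPH1, an HSP70 nucleotide exchange factor, had 23.9 and 52.4 for HSF1 and 33.3 and 23.01 for MYC, so SERPINH1 and HSPB1 were below HSPA8 and DNAJB6 in both lists. DNAJB1, the main HSP40, had 25.1 and 31.4 for HSF1 and HSPA1B, a stress-inducible HSP70, 22.7 and 28.6. DNAJB1 was thus between HSPB1 and SERPINH1 in replicate 1 and above both in replicate 2, and HSPA1B was below both in replicate 1 and between them in replicate 2. HSPA1A and HSPA1B are near-identical copies, so the division of reads between them is uncertain. FKBP10, a prolyl isomerase of collagen folding, had MYC at 34.6 and 25.6 upstream of its start and no reproducible HSF1 peak.

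**Figure D5:**
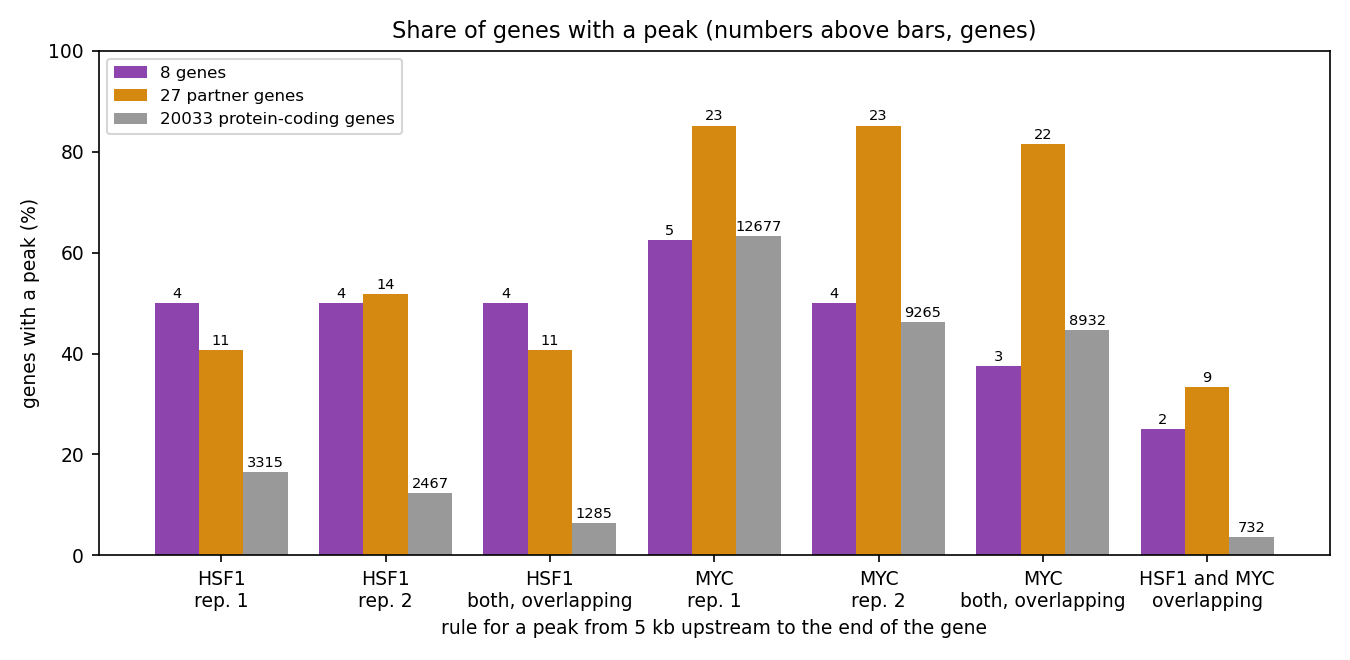
Percent of genes with a peak from 5 kb upstream to the end of the gene for the 8 genes, the 27 partner genes and all 20033 protein-coding genes, under the rules on the horizontal axis. Numbers above the bars are genes. The members reach 4 of 8 under each HSF1 rule and drop from 5 to 3 genes under the MYC rules, while the partners reach 22 or 23 of 27 for MYC.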

How the data were processed

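The peak lists of 2 HSF1 and 2 MYC CUT&RUN libraries were analysed. The submitters' processing notes name bcl2fastq 2.20.0, Bowtie2, SAMtools and bedtools. Per the labels and the methods, reads were trimmed and mapped to GRCh38, and the authors called peaks with MACS2 on each library separately. The file headers name MACS 2.2.9.1 with paired-end fragments, duplicates kept once, the larger library scaled to the smaller, and 1 IgG library behind every list. That library is called IgG replicate 2 in the headers, and the labels list 1 IgG control without a number. The values deposited with a peak are the pileup (signal), the −log10 p-value and q-value, and the fold enrichment (a ratio). The q-value column holds values although the header says that none were calculated, and it was not used. Partner genes given in counts are named without values. The pileups hold whole fragments, read counts per gene were not used here, and no count model was fitted.

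Peaks on chromosomes 1 to 22, X and Y were used (124 peaks on other sequences were left out), with GENCODE 44 and canonical start sites. Motifs were searched 100 bp either side of the strongest summit and in whole peaks, with pysam 0.24.0 and samtools 1.23.1. Copies of start sites and exons were sought with minimap2 2.31. Tables were made in Python 3.11.15 with pandas 2.3.3 and numpy 2.4.6, and figures with matplotlib 3.10.9. Assignment and motif search were tested on simulated data. The members, the partner list and the alternatives were chosen with earlier results of these data known. Named genes are all members, genes starting in their regions, up to 6 partners by mean fold enrichment and, for members with peaks in 4 lists, the genes most like them. A peak that is missing is one not called at this depth and threshold. The number of lists limits the precision, and PCR copies are not independent molecules.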

Additional observations from a re-analysis of the deposited data

How the results depend on the processing

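Of 98 recomputed values, 78 kept within 1.5 times the main count, within the SD between lists or in the same order, and 20 moved. A fold enrichment or summit gap left with 1 list lay within the SD of the 2 lists by construction. Those values are among the 78 and do not measure stability. The count of 4 members bound by HSF1 was 4 under all of its alternatives. No partner count moved by over 1.5 times. With the union of the replicates there were 5 members bound by MYC, 4 members with overlapping peaks, 8 HSF1 and 12 MYC peaks at members and 2 MYC peaks with an E-box. Without MYC replicate 2 there were 5 members bound by MYC (HSPB2 and SERPINH1 were added), 4 with overlapping peaks, 10 MYC peaks and 2 with an E-box. Without MYC replicate 1 these were 4, 3, 7 and 1. Leaving out an HSF1 replicate gave 7 to 8 HSF1 peaks at members, and 1 to 2 with a heat shock element, the second being HSPB1 intron 1 without replicate 2. At p 1e-20 there were 3 MYC peaks at members. Within 1 kb of any start site, and with mean summits within 250 bp, 1 member had overlapping peaks, HSPB1 in the first case and CRYAB in the second. A heat shock element was found in 3 HSF1 peaks when the whole peak was searched, in 2 with up to 1 mismatch and in 2 as a 2-unit element, and an E-box in 2 MYC peaks when the whole peak was searched. As pileup per 1000000 fragments, CRYAB (1.93) and HSPB2 (2.17) changed places for HSF1. The mean fold enrichments, left with 1 replicate, ranged from 6.87 to 30.9 for HSF1 and from 9.52 to 33.8 for MYC. The gap between HSF1 and MYC summits ranged from 63 to 245 bp at the CRYAB far site and from 1091 to 1555 bp at HSPB1. Of these alternatives, 6 were chosen after seeing the data. No paired analysis was possible because the replicate numbers are not stated to mark a shared culture or day and the results come from no test. The deposited lists give no coverage outside peaks, so a level below the threshold cannot be given.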

Other observations

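Beyond the 5 kb limit, HSPB1 had a pair of upstream sites held by both factors in all lists. At 8107 and 8048 bp upstream of its start, HSF1 had fold enrichments of 13.9 and 31.5, and MYC had 18.5 and 10.6 at 8035 and 7695 bp. In HSF1 replicate 2 this site was higher than the HSPB1 promoter (24.1), and in replicate 1 it was lower (13.9 against 24.8). At 10888 and 10771 bp upstream HSF1 had 9.37 and 13.03, and MYC had 25.0 and 8.73. The nearer site held a heat shock element with 1 mismatch, 139 and 80 bp from the HSF1 summits, and no E-box. Over all reproducible HSF1 intervals, 55.1% held an element with up to 1 mismatch and 9.48% held an E-box.

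SERPINH1 had a smaller site of this kind, with HSF1 at 8.04 and 4.99 about 7792 and 7827 bp upstream of the start and MYC at 12.2 in replicate 1.

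Copies of member sequence elsewhere in GRCh38 were looked up as well. The exons of HSPB1 had a partial copy on chromosome 9 (96.8% identity over 378 bp) and a longer one on chromosome X (87.8% over 764 bp), and the exons of SERPINH1 had one on chromosome 9 (91.5% over 1975 bp). The HSPB1 MYC interval overlaps sequence with 97.0% identity to the chromosome 9 copy over 304 bp. No list had a peak over any of these copies.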
